A study of Mus musculus with 24 samples.

Results

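The receptors through which macrophages bind immunoglobulin G (IgG) were described by their transcripts in 24 bulk RNA-sequencing libraries of mouse tissue-resident macrophages (TRMs). The set held 6 genes of the 45706 in the count table, chosen by name as the murine IgG Fc receptors and their common signalling chain: Fcgr1, Fcgr3, Fcgr4, Fcgr2b, Fcer1g and Fcgrt. The study compared macrophages sorted directly from the organ (ex vivo) with macrophage-like cells (LCs) grown from the same organ for 14 days (in vitro), in 8 groups of 3 libraries. Sorted microglia (MG, brain), Kupffer cells (KC, liver), peritoneal macrophages (PM) and alveolar macrophages (AM, lung) came from female C57BL/6J mice labelled as 8 to 12 weeks old, and so did the organs that were put into culture. MG were gated on CD45 and CD11b, KC additionally on F4/80 and TIM-4, PM on F4/80 and CD115, and AM on CD45, CD11b and SiglecF. MG-LCs, KC-LCs and PM-LCs were kept at 3% oxygen with 4.5 g/L glucose, MG-LCs in M-CSF and IL-34 and the other two in M-CSF alone. AM-LCs were kept at atmospheric oxygen in GM-CSF without glucose, so that the organ of origin, the growth factor, the oxygen and the glucose cannot be told apart in any comparison of AM-LCs with the other cultures. The growth factors were used at 20 ng/mL. A flask was started from 3 mice for MG-LCs, PM-LCs and AM-LCs and from 1 liver for KC-LCs, and the cultured cells were not sorted. Nothing in the labels ties a library to an animal or a flask, so the p-values measure the spread between these libraries, which may in part be technical. The sorted cells, but not as far as stated the cultured ones, were incubated before the sort with an antibody against CD16/CD32, which are the proteins made from Fcgr3 and Fcgr2b, and an effect of that step on their transcripts was not tested.

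Fc receptors couple the antibody response to the phagocyte. The activating receptors, Fcgr1 (CD64, of high affinity), Fcgr3 (CD16) and Fcgr4 (CD16-2), bind IgG outside the cell and signal through Fcer1g, the FcR gamma chain, whose cytoplasmic activation motif (ITAM) is phosphorylated by Src-family kinases and recruits the kinase Syk. Fcgr2b (CD32) is the inhibitory receptor: it carries an inhibitory motif (ITIM), recruits the lipid phosphatase encoded by Inpp5d and raises the threshold for activation. Fcgrt encodes the heavy chain of the neonatal Fc receptor FcRn, which pairs with beta-2-microglobulin in endosomes and returns IgG and albumin to the circulation instead of to the lysosome.

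Fcgr2b, Fcgr4, Fcgr3 and Fcer1g are neighbours on chromosome 1, and some share sequence, which bears on how their reads can be told apart. In GRCm38 Fcgr2b lay at chr1:170958617-170976547 on the minus strand, Fcgr4 at chr1:171018920-171029761 on the plus strand, Fcgr3 at chr1:171051174-171064935 on the minus strand and Fcer1g at chr1:171229572-171234365 on the minus strand. Fcgr1 lay at chr3:96282909-96293969 on the minus strand and Fcgrt at chr7:45092990-45103851 on the minus strand. The exons of Fcgr2b and Fcgr3 share stretches of identical coding sequence: 166 of the 50-base words of Fcgr3 (9.58%) also occur in Fcgr2b, and reads of 50 bases from those stretches cannot be assigned to either gene. In all, 6.95% of the 50-base words of Fcgr2b occur in another annotated gene, and 155 of its exon bases (2.68%) overlap an antisense gene, Gm38204, which an unstranded library cannot tell apart. For Fcgr1, Fcgr4, Fcer1g and Fcgrt no 50-base word was shared with another annotated gene (0%). The longest shared stretch inside a single exon is shown because it sets this limit. It is 113 bases of coding sequence, at chr1:170966560-170966672 in Fcgr2b and at chr1:171054053-171054165 in Fcgr3, both on the minus strand.
Fcgr2b and Fcgr3, shared: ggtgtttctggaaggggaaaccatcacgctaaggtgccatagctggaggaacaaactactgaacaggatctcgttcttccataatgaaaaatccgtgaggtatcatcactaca

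The promoters of the 4 members whose levels moved most between groups are shown next, from 250 bases before to 50 after the start site (RefSeq, GRCm38.p6). Capitals mark GAGGAA on either strand, a core bound by the macrophage factor PU.1 (Spi1). GAGGAA was found in 28.3% of 32851 RefSeq mouse promoters of this length. The Fcgr1 window (chr3:96293920-96294219, minus strand) held it once, at -55 from the start site. The Fcgr4 window (chr1:171018676-171018975, plus strand) held it once, at -22. It was not in the Fcgr2b window (chr1:170976022-170976321, minus strand) or the Fcgrt window (chr7:45103773-45104072, minus strand), nor in that of Fcer1g, and the windows of both annotated Fcgr3 start sites held GAGGAA once. These matches describe letters and were not tested as binding sites.
Fcgr1: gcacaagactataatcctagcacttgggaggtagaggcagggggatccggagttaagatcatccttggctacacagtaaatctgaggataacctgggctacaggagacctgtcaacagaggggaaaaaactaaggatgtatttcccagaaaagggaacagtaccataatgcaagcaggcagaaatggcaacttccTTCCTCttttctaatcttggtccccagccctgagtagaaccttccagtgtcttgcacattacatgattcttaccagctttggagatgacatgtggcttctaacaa
Fcgr4: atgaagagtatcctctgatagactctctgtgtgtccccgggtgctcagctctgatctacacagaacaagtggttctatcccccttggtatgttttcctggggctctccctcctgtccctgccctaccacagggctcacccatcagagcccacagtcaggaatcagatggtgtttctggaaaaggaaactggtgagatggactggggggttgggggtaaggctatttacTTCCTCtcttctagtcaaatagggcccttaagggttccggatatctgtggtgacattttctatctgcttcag
Fcgr2b: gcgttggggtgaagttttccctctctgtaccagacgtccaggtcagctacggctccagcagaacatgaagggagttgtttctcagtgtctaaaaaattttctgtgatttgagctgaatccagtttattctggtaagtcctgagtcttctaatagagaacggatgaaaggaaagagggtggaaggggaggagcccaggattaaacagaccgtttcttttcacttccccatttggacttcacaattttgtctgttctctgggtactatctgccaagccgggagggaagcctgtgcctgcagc
Fcgrt: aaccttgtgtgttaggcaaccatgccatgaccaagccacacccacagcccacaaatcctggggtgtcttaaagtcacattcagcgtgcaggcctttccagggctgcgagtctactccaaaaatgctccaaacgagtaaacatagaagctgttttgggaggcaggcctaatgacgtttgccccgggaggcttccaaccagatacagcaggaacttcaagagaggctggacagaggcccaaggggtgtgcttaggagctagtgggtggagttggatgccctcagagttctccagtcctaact

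Libraries held 29569486 to 47105111 counted reads (median 35965750), and every member was counted in all 24, from a lowest 127 reads (Fcgr2b in KC) to a highest 103269 (Fcer1g in KC-LC). General macrophage markers were detected in all libraries, with 7 to 8 of the 8, such as Csf1r and Cd68, at 3 or more reads, which does not measure purity. The 6 markers listed for each sorted population summed to less in its culture, by very different amounts. KC markers, such as Clec4f and Timd4, summed to 14322 to 25582 CPM (counts scaled to a common library size by TMM) in sorted KC and to 18.3 to 94.3 in KC-LCs, and MG markers, such as P2ry12 and Tmem119, summed to 24305 to 25125 in MG and to 958 to 3145 in MG-LCs. PM markers summed to 17663 to 20332 in PM and 79.7 to 139 in PM-LCs, and AM markers to 21915 to 25094 in AM and 2457 to 9457 in AM-LCs. The lists were not exclusive to 1 population. Timd4 is in those of KC and PM, and the KC markers summed to 3022 to 3673 CPM in sorted PM and 215 to 2236 in MG-LCs. Among the cultures, MG-LC replicate 1 stood apart with 30968 CPM of 8 fibroblast and mesothelium genes, against 7.39 and 1012 in the other two MG-LC libraries. PM-LC replicate 2 (2208 CPM) and AM-LC replicate 3 (1667 CPM) carried less of it. The 8 general macrophage markers summed to 3196 CPM in MG-LC replicate 1, against 8876 and 11570 in the other MG-LC libraries and 20763 to 22605 in sorted MG. Among the sorted libraries, KC replicate 1 held more RNA than the other two KC libraries of natural killer and T cell genes (206, 21.5 and 18.0 CPM in KC replicates 1 to 3) and of dendritic cell genes (799, 114 and 125 CPM).

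Between the 4 sorted populations every member differed: 6 of 6 passed edgeR's quasi-likelihood test of any difference at an adjusted p below 0.05, where 70.9% of the 15732 genes tested did. Between the 4 cultures none did (0 of 6, against 7.85% of 14813 genes), although 2 members had an unadjusted p below 0.05 (Fcgr1, 0.0353, and Fcgrt, 0.0266, from the edgeR test). DESeq2 called 3 members there, beside 25.2% of genes. Against the mean of the other 3 sorted populations, 4 of 6 members were called in MG (51.4% of genes), 6 of 6 in KC (36.5%), 4 of 6 in PM (35.9%) and 5 of 6 in AM (46.6%). Within each population, sorted against cultured, the test called 1 of 6 members for MG (46.4% of all genes tested), 2 of 6 for KC (33.8%), 2 of 6 for PM (28.9%) and 3 of 6 for AM (48.7%), shares near or below the background. The 3 sorted and 3 cultured libraries did not overlap for 2 of 6 members in MG (65.4% of genes), 4 in KC (54.1%), 3 in PM (48.8%) and 3 in AM (61.7%). The median log2 difference of the 6 members, sorted minus cultured, was -0.52 for MG, -0.14 for KC, -0.19 for PM and 0.42 for AM, beside -0.031, 0.0095, -0.013 and -0.037 over all genes. The sorted-minus-cultured difference itself changed with the population for 4 of 6 members, Fcgr1, Fcgr2b, Fcgr4 and Fcgrt (36.3% of 17408 genes). In bulk RNA, fewer cells that express a gene and less RNA per cell cannot be told apart, and this holds for each value that follows.

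**Figure D1:**
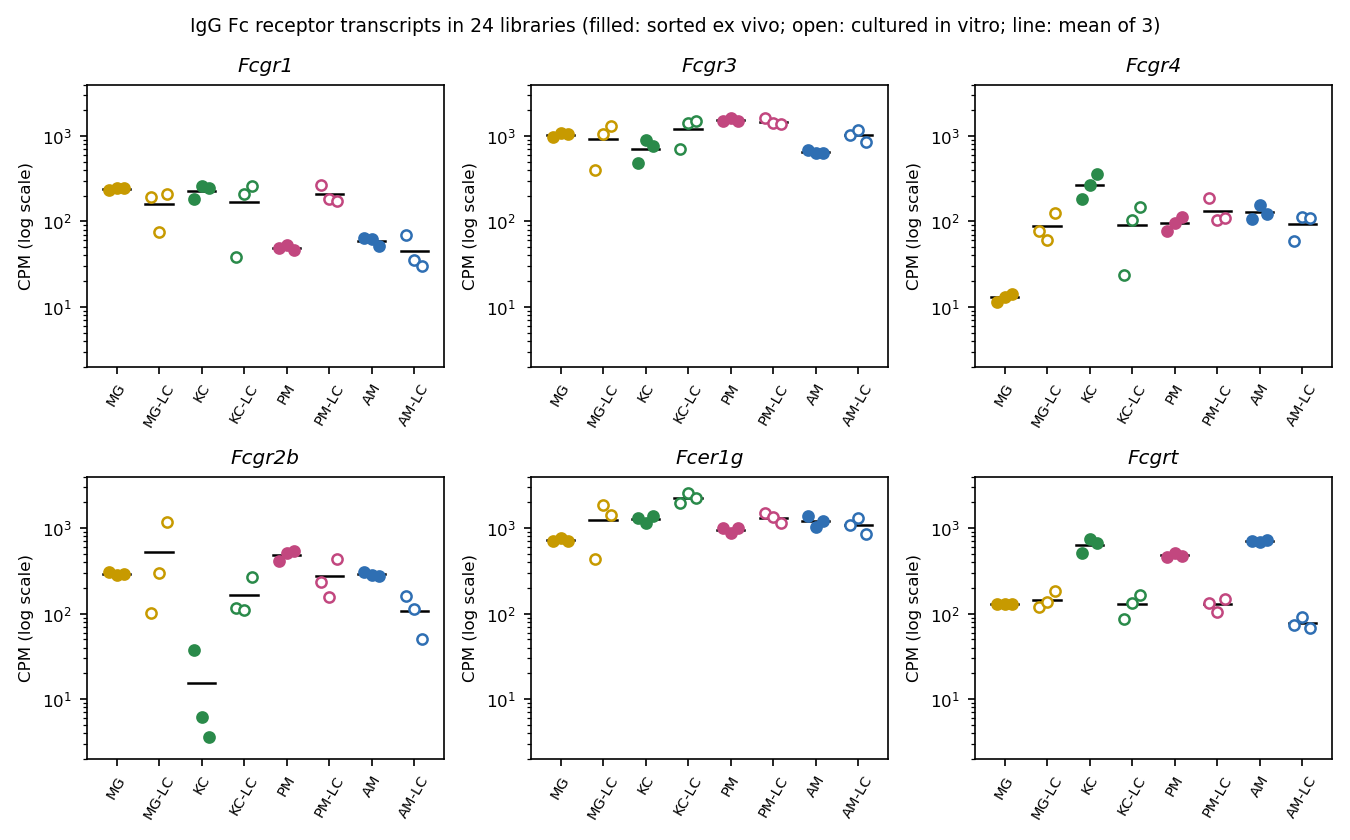
Level of each member (CPM, TMM-scaled, log axis) in the 24 libraries, 1 point per library, filled for sorted and open for cultured cells, with the mean of 3 as a line. Fcgr2b in sorted KC lies below every other group, Fcgr4 in sorted MG lies below every other library, and Fcgrt is high in sorted KC, PM and AM and low in sorted MG and in all cultures.

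Measured per kilobase of exon (RPKM), the gamma chain was the most abundant member in 24 of 24 libraries and Fcgr3 the most abundant activating receptor in 24 of 24. Fcer1g ranged from 501 to 2944 RPKM, and Fcgr3 from 231 to 940.4 RPKM. On the same scale Fcgr4 exceeded Fcgr1 in 20 of 24 libraries; the exceptions were the 3 sorted MG libraries and MG-LC replicate 1. The range over the 24 libraries, highest over lowest CPM, was 4.07-fold for Fcgr3, 5.87-fold for Fcer1g and 8.89-fold for Fcgr1, but 11.1-fold for Fcgrt, 30.8-fold for Fcgr4 and 323-fold for Fcgr2b.

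Fcgr1, the high-affinity receptor, separated the sorted populations into a high and a low pair. It was counted at 230.3, 244 and 246 CPM in the 3 MG libraries and at 181, 258 and 243 CPM in KC, against 64.0, 62.1 and 52.1 CPM in AM and 48.6, 53.4 and 46.1 CPM in PM. Every MG and KC library lay above every AM and PM library, whereas MG and KC overlapped, as did AM and PM. Against the mean of the other 3 sorted populations, Fcgr1 was higher in MG (log2 fold change 1.41 ± 0.11 (SE), adjusted p = 1.26e-06) and KC (log2 fold change 1.37 ± 0.11 (SE), adjusted p = 2.84e-06) and lower in PM (log2 fold change -1.56 ± 0.13 (SE), adjusted p = 3.58e-06) and AM (log2 fold change -1.22 ± 0.13 (SE), adjusted p = 1.53e-05). These 4 contrasts share their libraries.

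Among the cultures, PM-LCs departed from their sorted counterpart. They held 269, 185 and 173 CPM of Fcgr1, all above sorted PM, a 4.22-fold higher level (log2 fold change -2.08 ± 0.21 (SE), adjusted p = 0.000532, sorted over cultured). MG-LCs held 191, 76.1 and 209.7 CPM and KC-LCs 38.4, 209.8 and 261 CPM. The MG-LC values lay below all sorted MG values, but this was not called (log2 fold change 0.55 ± 0.38 (SE), adjusted p = 0.276). KC-LC replicate 1 lay far below its group, and without it the sign of the KC difference turned, from 0.45 to -0.049, not called either way (adjusted p = 0.589 and 0.920). AM-LCs held 69.4, 34.9 and 30.2 CPM, overlapping sorted AM (log2 fold change 0.41 ± 0.29 (SE), adjusted p = 0.283), but the difference was called without AM-LC replicate 1 (0.84, adjusted p = 0.00810). All AM-LC libraries lay below all other cultures except KC-LC replicate 1. Against the mean of the other 3 cultures Fcgr1 was lower in AM-LCs (log2 fold change -1.99 ± 0.57 (SE), adjusted p = 0.0452), 1 of 2 members called there (13.1% of genes, against 0 of 6 in MG-LCs, KC-LCs and PM-LCs by edgeR, limma-voom and DESeq2, where 0.56%, 0.108% and 0.527% were called by edgeR and 1, 1 and 0 members had an unadjusted p below 0.05), a call lost without any of 9 of the 12 cultured libraries.

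Fcgr3, the most abundant receptor, varied least. Sorted PM were highest with 1482, 1633 and 1513 CPM, followed by MG with 966, 1088 and 1044 CPM. KC held 482, 897 and 755 CPM and AM 693, 629 and 639 CPM. PM lay above MG and MG above KC without overlap, whereas KC and AM overlapped. Against the mean of the other 3, PM were higher (log2 fold change 1.00 ± 0.15 (SE), adjusted p = 0.000288), KC lower (log2 fold change -0.49 ± 0.16 (SE), adjusted p = 0.0341, not passed in 3 of 19 alternatives, among them 0.0518 without PM replicate 2) and AM lower (log2 fold change -0.67 ± 0.16 (SE), adjusted p = 0.00593), and MG did not pass (log2 fold change 0.16 ± 0.16 (SE), adjusted p = 0.430). The AM call was lost when all 24 libraries shared 1 model (adjusted p = 0.0713).

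For Fcgr3 the AM pair passed the test and the other 3 did not, but a difference between the pairs was not shown (interaction, adjusted p = 0.223). AM-LCs held 1024, 1184 and 857 CPM, all above sorted AM, 1.57-fold higher (log2 fold change -0.65 ± 0.13 (SE), adjusted p = 0.00602), a call that was lost when all 24 libraries shared 1 model (adjusted p = 0.152). Beside this, 8 neutrophil genes summed to 103 to 124 CPM in AM and 323 to 736 in AM-LCs. Of these, 3 were higher in all AM-LC libraries and 1 in all AM libraries. Dendritic cell genes summed to 2.86 to 4.90 and 61.0 to 184 CPM, and natural killer and T cell genes to 1.53 to 5.25 and 0.992 to 1.24 CPM. The part of these cells in the Fcgr3 reads was not tested. PM-LCs with 1601, 1434 and 1367 CPM overlapped sorted PM (log2 fold change 0.073 ± 0.15 (SE), adjusted p = 0.747). KC-LCs held 711, 1413 and 1500.2 CPM (log2 fold change -0.73 ± 0.38 (SE), adjusted p = 0.173) and MG-LCs 401, 1043 and 1324 CPM (log2 fold change 0.12 ± 0.46 (SE), adjusted p = 0.839), in each case with replicate 1 far below the other two. Without MG-LC replicate 1, the library rich in fibroblast RNA, the MG difference turned to -0.25 (adjusted p = 0.240).

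Fcgr4 was lowest in sorted microglia and highest in Kupffer cells. Sorted MG held 11.5, 12.9 and 14.3 CPM and KC 181, 269.9 and 354 CPM, with AM at 106, 155 and 124 CPM and PM at 76.9, 96.4 and 112 CPM between them. No KC library overlapped another sorted population and no MG library did, whereas AM and PM overlapped. MG were lower than the mean of the other 3 by 11.9-fold (log2 fold change -3.57 ± 0.25 (SE), adjusted p = 3.43e-07), KC were 5.05-fold higher (log2 fold change 2.33 ± 0.18 (SE), adjusted p = 1.48e-06) and AM 1.87-fold higher (log2 fold change 0.90 ± 0.19 (SE), adjusted p = 0.00207). The AM call was lost when all 24 libraries shared 1 model (adjusted p = 0.0541).

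MG-LCs did carry Fcgr4, at 77.9, 60.6 and 127 CPM, all above every sorted MG library. The difference was 7.07-fold (log2 fold change -2.82 ± 0.31 (SE), adjusted p = 0.00181) and was called in each of the 14 alternatives, including the one without MG-LC replicate 1 (-2.91, adjusted p = 0.00143). Beside this, 8 monocyte genes summed to 6.11 to 10.5 CPM in sorted MG and 148 to 319 in MG-LCs. In MG-LCs Nr4a1 was 142 to 219 of this. Ly6c2, from the same list, was at or near 0 in both groups (0 to 0.0220 and 0 to 0.0770). Of the 8 genes, 3 were higher in all MG-LC libraries and 0 in all sorted MG libraries, and Nr4a1 was not the whole of the sum. The 8 neutrophil genes summed to 0.0270 to 0.132 and 4.46 to 81.6 CPM, and the part of these cells in the Fcgr4 reads was not tested. KC-LCs held 23.7, 104 and 146 CPM, all below sorted KC. That difference was not called (log2 fold change 1.59 ± 0.60 (SE), adjusted p = 0.0773), but it was by limma-voom (adjusted p = 0.0446) and by DESeq2 (adjusted p = 0.0163), and over all its alternatives the adjusted p ranged from 0.0117 to 0.181. The monocyte genes summed to 878 to 932 CPM in sorted KC and 123 to 236 in KC-LCs. Of the 8 genes, 6 were higher in all sorted KC libraries, Treml4 (441 to 739 against 0.747 to 3.07 CPM) the most abundant, and the other 2 in all KC-LC libraries. The part of monocytes was not tested. PM-LCs (187, 104 and 110.1 CPM) and AM-LCs (59.0, 113 and 109 CPM) overlapped their sorted counterparts (adjusted p = 0.215 and 0.235). The group means of the 4 cultures lay between 88.4 and 134 CPM, and those of the sorted cells between 12.9 and 268 CPM. Sorted minus cultured was thus negative in MG and positive, though not called, in KC. The joint test of whether that difference varied over the 4 populations passed (adjusted p = 0.000307). It does not compare MG with KC alone.

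Fcgr2b, the inhibitory receptor, separated sorted Kupffer cells from the other sorted populations by the largest fold of the 6 members. The 3 sorted KC libraries held 37.1, 6.23 and 3.62 CPM, with replicate 1 above the other two, against 307, 287 and 288 CPM in MG, 307, 281 and 275 CPM in AM and 419, 507 and 537 CPM in PM. KC lay below every other sorted library, MG and AM overlapped, and PM were highest without overlap. KC were 21.7-fold lower than the mean of the other 3 (log2 fold change -4.44 ± 0.67 (SE), adjusted p = 0.000325) and PM higher (log2 fold change 2.17 ± 0.46 (SE), adjusted p = 0.00298). Over the alternatives the KC log2 difference ranged from -6.16, without KC replicate 1, to -3.97, without KC replicate 3, and was called in all 18. MG and AM did not pass in this contrast (adjusted p = 0.0662 and 0.0676), in which KC is part of the mean, but passed in 5 and 3 of 18 alternatives.

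Other cells of the liver express Fcgr2b, among them sinusoidal endothelium, B cells and dendritic cells, and their markers were present in the sorted KC libraries. The 8 sinusoidal endothelium genes summed to 282, 496 and 519 CPM in KC replicates 1 to 3 and to 29.7 to 45.5 in KC-LCs, with 6 to 7 of 8 at 3 or more reads in KC. Within that list Stab2 (203, 343 and 358 CPM) and Pecam1 (37.6, 144 and 159.9) made up most of the sum and were lowest in replicate 1, whereas Kdr (19.2, 3.24 and 0.0856) and Clec4g (14.5, 3.58 and 0.342) were highest in replicate 1, as Fcgr2b was, and Emcn was at or near 0 (0.0272, 0.0519 and 0). The 8 B cell genes summed to 213, 169 and 234 CPM in KC, all 8 at 3 or more reads, and to 1.90 to 11.5 in KC-LCs. The natural killer and T cell genes and the dendritic cell genes were highest in replicate 1, as given above. The part of these cells in the Fcgr2b reads of KC was not tested.

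KC-LCs held Fcgr2b at 116, 111 and 266 CPM, each above every sorted KC library. The level was 10.2-fold higher than in sorted KC (log2 fold change -3.35 ± 0.90 (SE), adjusted p = 0.0239). Without KC replicate 1 the difference widened (-5.04, adjusted p = 0.00157), but the call was lost without KC replicate 2 (adjusted p = 0.0721), KC-LC replicate 2 (0.0544) or KC-LC replicate 3 (0.0688). AM-LCs went the other way: 160.3, 112 and 50.7 CPM, all below sorted AM, 2.69-fold lower (log2 fold change 1.43 ± 0.35 (SE), adjusted p = 0.0124), a call lost when all 24 libraries shared 1 model (adjusted p = 0.167). B cell genes summed to 161 to 169 CPM in AM and 36.6 to 101 in AM-LCs, 4 to 6 and 2 to 4 of 8 genes at 3 or more reads. Nearly all of the sum in AM was Cd22 (159.5, 169 and 166 CPM), and the defining marker Pax5 had 0 reads in all 3 libraries, which allows up to 0.114 CPM. The part of B cells in the Fcgr2b reads of AM and AM-LCs was not tested.

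MG-LCs spread widest in Fcgr2b, with 102, 298 and 1170.5 CPM, below, within and above the sorted MG range. The MG difference was not called (log2 fold change -0.87 ± 0.81 (SE), adjusted p = 0.400), and its sign turned without MG-LC replicate 3 (0.51). PM-LCs held 233, 157 and 439 CPM and overlapped sorted PM (log2 fold change 0.81 ± 0.37 (SE), adjusted p = 0.141). Without PM-LC replicate 3, the highest of them, Fcgr2b was called lower in PM-LCs (1.36, adjusted p = 0.00554). When the reads of Fcgr2b and Fcgr3 were added into 1 feature because of their shared sequence, no pair comparison was called (adjusted p = 0.826 for MG, 0.101 for KC, 0.319 for PM and 0.152 for AM). This sum cannot show whether the Fcgr2b calls rest on shared reads. In sorted KC it was mostly Fcgr3 (17754 to 34577 reads, against 127 to 1364 of Fcgr2b). In AM, Fcgr2b and Fcgr3 differed in opposite directions (1.43 and -0.65).

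Fcer1g, the gamma chain on which the activating receptors depend, followed a different order. Sorted KC held 1307, 1148 and 1388 CPM and AM 1394, 1045 and 1202 CPM, which overlapped. PM with 1012, 880.4 and 1003 CPM lay below both, and MG with 709, 774 and 708 CPM below PM. MG were 1.62-fold lower than the mean of the other 3 (log2 fold change -0.70 ± 0.13 (SE), adjusted p = 0.000731) and KC 1.37-fold higher (log2 fold change 0.45 ± 0.12 (SE), adjusted p = 0.0108). AM were 1.26-fold higher (log2 fold change 0.33 ± 0.12 (SE), adjusted p = 0.0388), a call that 13 of 20 alternatives lost. The MG and KC calls were lost when all 24 libraries shared 1 model (adjusted p = 0.0700 and 0.241). In that model the test of any difference of Fcer1g between the 4 sorted populations was not passed either (adjusted p = 0.135).

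Fcer1g passed in none of the 4 sorted-cultured pairs. KC-LCs held 1952, 2573 and 2281 CPM, all above sorted KC (log2 fold change -0.79 ± 0.27 (SE), adjusted p = 0.0589), and PM-LCs 1486, 1355 and 1154 CPM, all above sorted PM (log2 fold change -0.46 ± 0.16 (SE), adjusted p = 0.0749). Each was called in 3 of its 14 alternatives (limma-voom, DESeq2 and the fit without KC replicate 1 or PM-LC replicate 3) and not in the other 11, with adjusted p from 0.00451 to 0.160 for KC and from 0.0316 to 0.312 for PM. MG-LCs held 438, 1879 and 1427 CPM, replicate 1 below and the other two above all sorted MG (log2 fold change -0.81 ± 0.53 (SE), adjusted p = 0.242). Without that fibroblast-rich replicate 1 the difference was called (-1.23, adjusted p = 0.00263). AM-LCs with 1091, 1303 and 852 CPM overlapped sorted AM (log2 fold change 0.16 ± 0.17 (SE), adjusted p = 0.470).

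Fcgrt, the FcRn heavy chain, was lower in culture in 3 of the 4 populations. It was counted at 715, 690.4 and 737 CPM in sorted AM, 510.5, 747 and 673 CPM in KC and 458, 515 and 473 CPM in PM. Sorted MG held only 129.6, 131 and 129 CPM. AM and KC overlapped, KC and PM overlapped, and MG lay below all of them, 4.82-fold under the mean of the other 3 (log2 fold change -2.27 ± 0.13 (SE), adjusted p = 1.02e-07). AM (log2 fold change 1.07 ± 0.11 (SE), adjusted p = 1.10e-05) and KC (log2 fold change 0.88 ± 0.11 (SE), adjusted p = 8.83e-05) were higher than the mean of the others, and PM by 1.25-fold (log2 fold change 0.33 ± 0.11 (SE), adjusted p = 0.0441), a call that 10 of 20 alternatives lost.

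In culture the 3 high populations fell in Fcgrt. AM-LCs held 73.8, 91.2 and 67.5 CPM, or 10.9% of the sorted mean, 9.18-fold lower (log2 fold change 3.20 ± 0.14 (SE), adjusted p = 3.21e-05). KC-LCs held 86.5, 133 and 164 CPM, 19.9% of sorted KC and 5.14-fold lower (log2 fold change 2.36 ± 0.32 (SE), adjusted p = 0.00213). PM-LCs held 134, 104 and 149 CPM, 26.7% of sorted PM and 3.74-fold lower (log2 fold change 1.90 ± 0.19 (SE), adjusted p = 0.000508). None of these cultures overlapped its sorted population, and all 3 calls held in each of their alternatives. MG-LCs with 121, 135 and 182 CPM overlapped sorted MG (log2 fold change -0.22 ± 0.20 (SE), adjusted p = 0.392), and the difference between populations in the effect of culture passed (adjusted p = 1.18e-06). Within the cultures Fcgrt was lower in AM-LCs than in the mean of the other 3 (log2 fold change -0.78 ± 0.22 (SE), adjusted p = 0.0403), although AM-LCs overlapped KC-LCs, and 11 of 21 alternatives lost that call.

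FcRn is also made by epithelium, endothelium and hepatocytes, so their markers are given beside it. In KC, 7 to 8 of 8 hepatocyte genes had 3 or more reads and they summed to 93.8 to 222 CPM, against 0.0240 to 0.101 in KC-LCs. KC replicate 1 had the highest hepatocyte sum and the lowest Fcgrt of the 3, and the part of hepatocyte RNA was not tested. The sinusoidal endothelium sums of KC are given above. In AM, 8 epithelial genes summed to 286 to 345 CPM (6 to 7 of 8 at 3 or more reads, most of the sum from Epcam and Cdh1, Cldn18 at or near 0), against 61.8 to 216 in AM-LCs, and the part of epithelial RNA was not tested. In PM the hepatocyte genes summed to at most 0.217 CPM and the epithelial genes to at most 1.63 CPM. The sinusoidal endothelium genes summed to 5.84 to 9.57 CPM in PM and 20.1 to 39.7 in PM-LCs. In AM and AM-LCs they summed to 0.486 to 1.27 and 22.3 to 42.3 CPM. Fcgrt stood at 482 ± 29.6 CPM (SD, n = 3) in PM, and the part of these other cells in it was not tested.

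**Figure D2:**
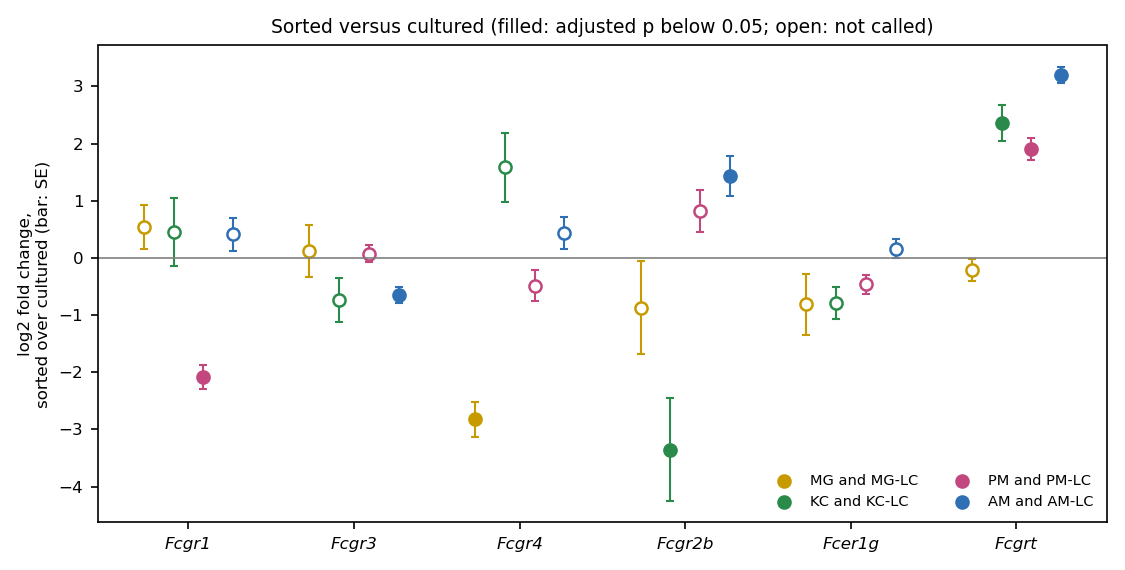
Log2 fold change of each member, sorted over cultured, for the 4 populations (points, with the standard error as bars). Filled points passed edgeR's test at an adjusted p below 0.05: Fcgrt lies at or above 1.90 in KC, PM and AM, Fcgr4 at -2.82 in MG, Fcgr1 at -2.08 in PM, Fcgr2b at -3.35 in KC and 1.43 in AM, and Fcgr3 at -0.65 in AM.

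The make-up of the activating receptor RNA followed from these levels and is given per kilobase of exon, as a description of each library. Fcgr3 supplied 91.4, 90.6 and 89.1% of the summed Fcgr1, Fcgr3 and Fcgr4 RPKM in the 3 PM libraries and 85.0, 85.7 and 85.0% in MG. In sorted KC it supplied only 56.5, 62.2 and 53.6%, and Fcgr4 supplied 29.3, 25.8 and 34.8%. Fcgr4 made up 16.6, 24.2 and 20.2% in AM and 1.40, 1.40 and 1.61% in MG. The cultures lay closer together: the Fcgr4 share was 4.25, 8.45 and 10.8% in KC-LCs, 16.9, 7.11 and 10.7% in MG-LCs, 12.7, 8.42 and 9.30% in PM-LCs and 7.07, 11.5 and 14.7% in AM-LCs.

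The activating receptors outnumbered Fcgr2b in 24 of 24 libraries on this scale but by very different ratios. The ratio of summed activating RPKM to Fcgr2b RPKM was 9.59, 10.5 and 10.2 in AM, 12.9, 11.9 and 10.5 in PM and 12.4, 14.8 and 14.2 in MG. In sorted KC it was 76.9, 773 and 1297, the low Fcgr2b counts of KC replicates 2 and 3 (240 and 127 reads) being the denominator. KC-LCs had 22.2, 51.2 and 23.5, all below sorted KC, and AM-LCs 23.98, 40.59 and 67.67, all above sorted AM. MG-LCs (20.8, 13.2 and 4.67) and PM-LCs (29.2, 36.2 and 12.4) overlapped their sorted counterparts. The value of the ratio depends on the exon lengths, since the 5790 bases of Fcgr2b count against 1736 for Fcgr3: from CPM without lengths it was 4.39 ± 0.396 in MG (mean ± SD, n = 3) in place of 13.8 ± 1.27.

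The gamma chain exceeded the summed activating receptors per kilobase of exon in 23 of 24 libraries, but from CPM without lengths in only 9 of 24, and in no sorted MG or PM library. The ratio of Fcer1g to summed activating RPKM was 1.24, 0.971 and 1.17 in PM and 1.24, 1.21 and 1.14 in MG, and 3.04, 1.58 and 1.96 in KC and 3.14, 2.35 and 2.83 in AM. It did not overlap between MG and MG-LCs (1.37, 3.17 and 1.73) or between PM and PM-LCs (1.45, 1.58 and 1.40), the cultures being higher, nor between AM and AM-LCs (1.88, 1.90 and 1.64), the cultures being lower. No test was made on these ratios.

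**Figure D3:**
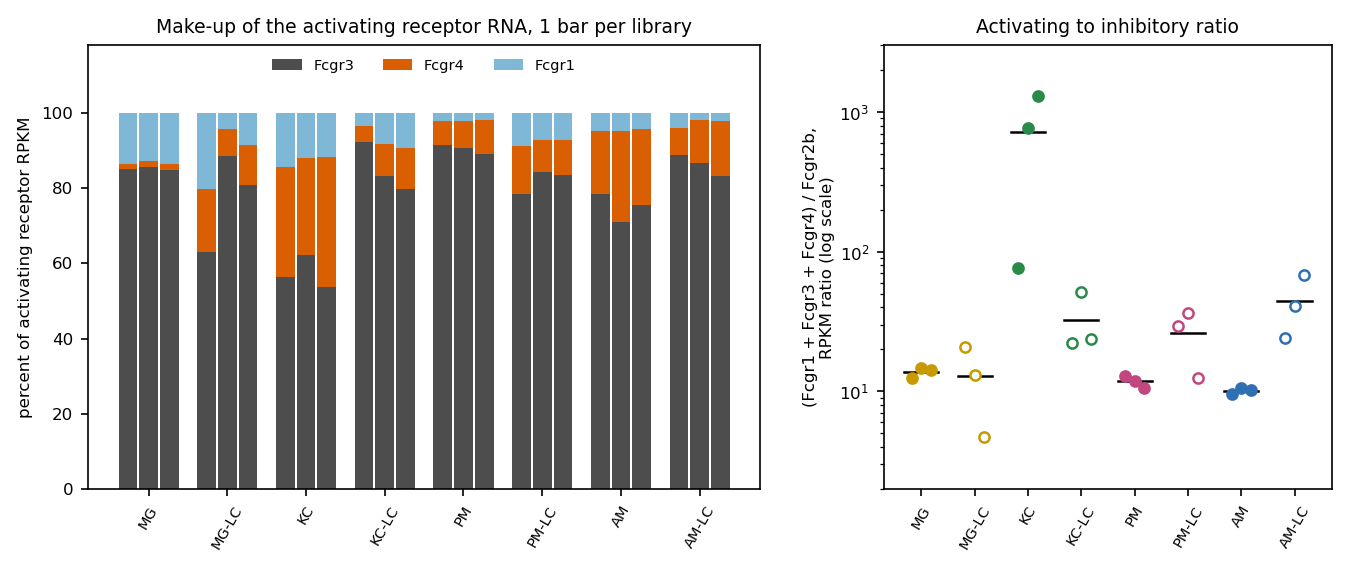
Left, share of Fcgr3, Fcgr4 and Fcgr1 in the summed RPKM of the 3 activating receptors (percent), 1 bar per library, 3 bars per group. Right, ratio of that sum to Fcgr2b RPKM (log axis), filled for sorted and open for cultured, the line giving the mean of 3: sorted KC reach 1297 and the other sorted libraries lie between 9.59 and 14.8.

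The genes around the receptors were followed as lists, whose counts stand beside 46.4%, 33.8%, 28.9% and 48.7% of all genes called in the MG, KC, PM and AM pairs. A test value is given for a named gene only in pairs where it was among the 4 of its list with the smallest adjusted p. Other pairs may differ too. Of 11 kinases and adaptors of the ITAM pathway, 4 were higher and 1 lower in sorted MG than in MG-LCs, 6 and 2 in KC, 4 and 2 in PM, and 7 and 2 in AM. Their median log2 difference was 0.36, 1.15, -0.13 and 0.86 in that order, beside the medians over all genes given above. Lyn, a Src-family kinase that phosphorylates the ITAM, was higher in sorted MG (log2 fold change 2.23, SE 0.38, adjusted p = 0.00641), PM (log2 fold change 1.32, SE 0.23, adjusted p = 0.00519) and AM (log2 fold change 1.37, SE 0.10, adjusted p = 0.000132), and stood at 429 to 693 CPM in KC and 193 to 247 in KC-LCs. Fgr, of the same family, stood at 146 to 169.6 CPM in KC and 2.29 to 2.54 in KC-LCs (log2 fold change 6.08, SE 0.25, adjusted p = 5.60e-05), and at 136 to 147 and 2.43 to 8.73 in PM and PM-LCs (log2 fold change 4.91, SE 0.55, adjusted p = 0.000831). The adaptor Lat2 was lower in the sorted cells, at 1.34 to 16.7 CPM in KC and 320.3 to 463 in KC-LCs (log2 fold change -5.73, SE 0.99, adjusted p = 0.00507), and at 0.179 to 0.538 in AM and 85.6 to 168 in AM-LCs (log2 fold change -8.60, SE 0.49, adjusted p = 5.70e-05). Lat2 was lower in sorted PM too (log2 fold change -2.69, SE 0.26, adjusted p = 0.000472).

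Of 12 effectors further down, from phospholipase C to the actin machinery, 4, 4, 2 and 6 were called in MG, KC, PM and AM, or 33.3%, 33.3%, 16.7% and 50%, beside the shares of all genes just given. Of these, 2 were higher and 2 lower in sorted MG, 3 and 1 in KC, 1 and 1 in PM, and 6 and 0 in AM, with median log2 differences of 0.76, 0.23, 0.29 and 0.55. Plcg2, the phospholipase of the pathway, was among the 6 in AM (log2 fold change 1.40, SE 0.21, adjusted p = 0.00194), as was the exchange factor Vav1 (log2 fold change 0.87, SE 0.11, adjusted p = 0.000825). Vav1 was also higher in sorted KC (log2 fold change 0.88, SE 0.23, adjusted p = 0.0210). In PM its difference had the other sign and did not pass (log2 fold change -0.57, SE 0.19, adjusted p = 0.0651). Of 11 tested genes of the inhibitory side, 8, 4, 7 and 5 were called, or 72.7%, 36.4%, 63.6% and 45.5%. Of these, 3 were higher and 5 lower in sorted MG, 2 and 2 in KC, 3 and 4 in PM, and 4 and 1 in AM, with medians of -0.56, 0.45, 0.19 and 0.25. Inpp5d, the phosphatase that Fcgr2b recruits, was higher in sorted MG (log2 fold change 2.72, SE 0.55, adjusted p = 0.0104) and KC (log2 fold change 0.92, SE 0.26, adjusted p = 0.0274), and stood at 203 to 265 CPM in AM and 80.4 to 137 in AM-LCs. Pirb, an inhibitory receptor with ITIMs, was lower in sorted MG (log2 fold change -3.74, SE 0.33, adjusted p = 0.00103), and Dok3, an adaptor of inhibitory signalling, was higher in sorted KC (log2 fold change 1.58, SE 0.23, adjusted p = 0.00279), PM (log2 fold change 2.28, SE 0.17, adjusted p = 0.000153) and AM (log2 fold change 1.37, SE 0.17, adjusted p = 0.000836).

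Of 8 transcription factors of macrophages and of the interferon response, 3, 4, 2 and 7 were called in MG, KC, PM and AM, or 37.5%, 50%, 25.0% and 87.5%, beside 46.4%, 33.8%, 28.9% and 48.7% of all genes. Of these, 1 was higher and 2 lower in sorted MG, 4 and 0 in KC, 1 and 1 in PM, and 6 and 1 in AM, with medians of 0.69, 1.22, -0.048 and 1.00. Irf1, which acts downstream of interferons, was among the 4 in KC (log2 fold change 2.39, SE 0.41, adjusted p = 0.00494), and Spi1 was among the 6 in AM (log2 fold change 1.02, SE 0.12, adjusted p = 0.00071). Irf1 did not pass in PM (log2 fold change 0.83, SE 0.47, adjusted p = 0.221). Among the partners of FcRn, B2m, the light chain, moved the other way from Fcgrt in AM, at 1732 to 2256 CPM in sorted AM and 4539 to 7258 in AM-LCs (log2 fold change -1.55, SE 0.19, adjusted p = 0.000786), was lower in sorted MG too (log2 fold change -1.08, SE 0.35, adjusted p = 0.0447), and did not pass in KC (log2 fold change -0.10, SE 0.34, adjusted p = 0.836) or PM (log2 fold change -0.57, SE 0.20, adjusted p = 0.0705).

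Of 11 other Fc receptor genes, for IgE, IgM and IgA or of the Fc receptor-like family, 2 to 6 had enough reads to be tested in a pair, and 1 of 3 was called in MG, 4 of 6 in KC, 3 of 5 in PM and 1 of 2 in AM. Fcrls, an Fc receptor-like gene used as a microglial marker, stood at 3117 to 3470.4 CPM in sorted MG and at 211 to 1028 in MG-LCs (log2 fold change 2.55, SE 0.64, adjusted p = 0.0200). It had 0 reads in the 3 sorted AM libraries, a count that allows up to 0.114 CPM, and 4.34 to 27.9 CPM in AM-LCs. In sorted KC it stood at 0 to 1.09 CPM and in KC-LCs at 206 to 274. Fcmr, the IgM receptor, was found at 4.93 to 13.5 CPM in sorted KC, beside the B cell sums given above, and had 0 reads in KC-LCs.

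**Figure D4:**
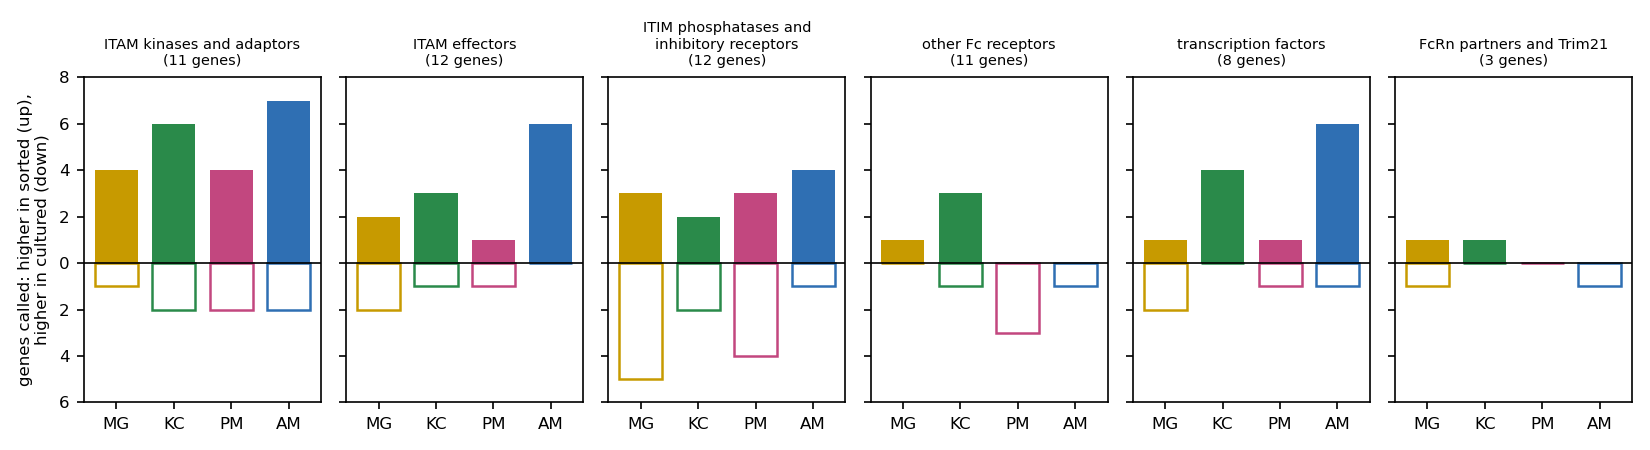
Number of genes called in each list (edgeR, adjusted p below 0.05) for the 4 sorted-cultured pairs: filled bars upward, higher in sorted; open bars downward, higher in cultured. The list size stands above each panel; in the ITAM kinases and adaptors 5, 8, 6 and 9 of 11 genes were called in MG, KC, PM and AM, where 46.4%, 33.8%, 28.9% and 48.7% of all genes were.

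Among 8382 genes with an average log2 CPM above 3, those whose levels over the 24 libraries were most like each member were ranked by Pearson's r of log2 CPM. The points share libraries and depth and fall into 8 groups, so r is given as a description. Most like Fcgr4 were Siglec1 (0.92), Ifi207 (0.88) and Iqgap2 (0.88), Siglec1 being a sialic acid receptor of macrophages, and most like Fcgrt were Rnpep (0.91), Rassf4 (0.89) and Ano6 (0.88). For Fcgr1 they were Ms4a6b (0.88), Adap2 (0.82) and Lst1 (0.81), for Fcgr2b Peli2 (0.85), Adam15 (0.85) and Rab11fip5 (0.84), for Fcgr3 1110032A03Rik (0.85), Tmem71 (0.83) and Mid1ip1 (0.83) and for Fcer1g BC005624 (0.82), Pkib (0.81) and Skap2 (0.81). No member was among the 3 most like another, as members were left out of this ranking.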

How the data were processed

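The members and gene lists were chosen with earlier results of these data known. Per the labels and the study's methods, the authors made libraries with a low-input, unstranded kit, trimmed the single reads, aligned them with STAR and deposited raw counts per gene. The methods name mm10, the labels' processing notes name hg19, and the identifiers are murine. A gene symbol was found for 45143 of 45706, from GENCODE M21 (GRCm38) or, failing that, from a second list of gene names. Libraries held 29569486 to 47105111 reads, and 0 reads allowed up to 0.114 CPM (3 reads, counting error only). From the counts, genes passing edgeR's filterByExpr (minimum count 10) were tested by edgeR 4.0.16 (quasi-likelihood, TMM, R 4.3.3) with Benjamini-Hochberg adjustment over all genes and a threshold of 0.05. Each population was compared sorted against cultured in its own 6 libraries, and populations were compared within each state. All 24 libraries entered the test of whether the sorted-cultured difference varied with population. Positive log2 values mean higher in sorted cells or in the group named first. RPKM is CPM per kilobase of merged exons, from GENCODE lengths. From each pathway list at most 4 genes were named per pair, taken from those with the smallest adjusted p, besides Fcrls and Fcmr. Alternatives were limma-voom (limma 3.58.1), DESeq2 1.42.0, other scaling and filters, a fold threshold, a replicate block, 1 model for all libraries, Fcgr2b and Fcgr3 combined, and leaving out libraries. The fits were tested on simulated data. The correlation of same-numbered libraries' deviations was -0.104 to 0.0558. Such values cannot settle whether same-numbered libraries share animals, as the spread between cultures enters them. The main tests did not pair libraries.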

Additional observations from a re-analysis of the deposited data

Results flagged for a closer look

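The difference between sorted and cultured cells varied with the population for 4 of the 6 genes (edgeR, interaction of population and state over all 24 libraries). For Fcgr1 the adjusted p was 0.00993, with log2 differences, sorted minus cultured, of 0.55 in MG, 0.45 in KC, -2.08 in PM and 0.41 in AM. For Fcgr2b it was 0.00836, with differences of -0.87, -3.35, 0.81 and 1.43 in the same order. For Fcgr4 it was 0.000307, with -2.82, 1.59, -0.49 and 0.43. For Fcgrt it was 1.18e-06, with -0.22, 2.36, 1.90 and 3.20.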

How the results depend on the processing

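Of the 24 results for single genes in the sorted-cultured pairs, 8 were called and 5 of these were called under every one of the 13 or 14 alternatives. Of 305 recomputed counts of genes called, 271 stayed within 1.5 times the value reported. Of 1723 recomputed results for single genes, 1620 kept their sign and side of the threshold, 59 lost the call and 30 gained it. DESeq2 gave no adjusted p for 5 results, all for Fcgr2b between sorted populations. The share of all tested genes called under the same setting stands in brackets. For KC against KC-LCs, 4 genes were called by limma-voom (38.6%) and 4 by DESeq2 (41.2%), in place of 2. With Fcgr2b and Fcgr3 combined, 1 was called (33.8%). For AM against AM-LCs, 1 was called with all 24 libraries in 1 model (28.8%), in place of 3. Above a log2 fold change of 1.5 there was 1 (21.5%), and with the combined feature 1 (48.7%). Between the cultures, DESeq2 called 3 (25.2%) and the 24-library model 2 (21.1%), in place of 0. For AM-LCs against the other cultures, 1 was called by limma-voom (12.9%) and 1 without a filter (6.35%), in place of 2. With a replicate block 1 was called (11.9%), and above 1.5 also 1 (7.26%). Leaving out the 3 libraries with the most fibroblast RNA, chosen after seeing the data, gave 0 there (15.7%). For sorted AM against the other sorted cells, in place of 5, the 24-library model called 2 (34.4%) and the 1.5 threshold 0 (23.3%). That threshold gave 2 for sorted MG (26.4%), 2 for KC (18.1%) and 2 for PM (16.6%) against the others.

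Without each library in turn, the count ranged from 1 to 2 for the MG pair, 1 to 3 for KC, 2 to 4 for PM, 0 to 3 for AM-LCs against the other cultures and 0 to 1 between the cultures. The sign turned in 14 recomputed results in all, each for a difference that was not called. In the pairs, the log2 difference ranged from -0.25 to 0.47 for Fcgr3 in MG, -1.38 to 0.51 for Fcgr2b in MG and -0.049 to 0.89 for Fcgr1 in KC. Against the other cultures it ranged from -0.28 to 0.14 for Fcgr4 in AM-LCs, -0.71 to 0.27 in KC-LCs and -0.56 to 0.0032 in MG-LCs, from -0.077 to 0.39 for Fcgr3 and -0.058 to 0.39 for Fcgrt in KC-LCs, from -0.64 to 0.14 for Fcer1g in MG-LCs and from -0.13 to 0.84 for Fcgr2b in PM-LCs. Without the 3 fibroblast-rich libraries together, Fcer1g in MG-LCs (0.11) and Fcgr3 in KC-LCs (-0.028) turned too. The causes were not tested. The count of all genes called moved by over 1.5 times mainly among the cultures. The test between the 4 cultures called 1163 genes by edgeR, 3732 by DESeq2 and 3673 in the 24-library model. The same 3 fits called 83, 1471 and 1820 genes for MG-LCs against the other cultures, 16, 1407 and 536 for KC-LCs, 78, 910 and 695 for PM-LCs, and 1939, 3125 and 3140 for AM-LCs. Without a filter 409, 37 and 131 were called for MG-LCs, KC-LCs and PM-LCs, with the replicate block 2, 3 and 40, and limma-voom called 3 for KC-LCs. Without the 3 fibroblast-rich libraries 53 were called for MG-LCs and 143 for PM-LCs. Above a log2 fold change of 1.5 the 4 pairs had 4303, 3044, 2407 and 2837 genes in place of 6696, 4608, 3921 and 6431, the 4 sorted populations against the others 4156, 2842, 2619 and 3662 in place of 8086, 5736, 5642 and 7325, and AM-LCs 1075. With the replicate block, 1, 3, 2 and 3 of the 6 genes were called in the MG, KC, PM and AM pairs. The same fits called 33%, 28%, 20.6% and 44.5% of all genes. With 3 libraries a group, no exact permutation test of 1 value can go below p = 0.1.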
